A study of Mus musculus with 23 samples.

Results

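Iron can enter a cell through the transferrin receptor or through ZIP metal transporters, and both routes are tuned by proteins that sense iron in the cytosol. The 7 genes described here were chosen by name for these roles, and they stand for 7 of the 18876 genes in the count table. They are Tfrc, which encodes the transferrin receptor; Slc39a14 and Slc39a8, which encode the ZIP transporters ZIP14 and ZIP8; Steap3, an endosomal ferrireductase; Aco1 and Ireb2, which encode the iron regulatory proteins IRP1 and IRP2; and Fbxl5, the iron-sensing subunit of a ubiquitin ligase. All 7 passed the filter of at least 5 counts in at least 3 samples, as did 18759 genes in all. Reads on genes were counted in bulk RNA of CD11b+ cells from both hippocampi of female mice, 1 library per sample. CD11b is a surface protein of microglia, the resident macrophages of the brain, and of other myeloid cells.

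Every mouse was Slc11a2 fl/fl and Cx3cr1 Cre-ERT2+/- on a mixed 129S and C57BL/6J background. Slc11a2 encodes DMT1, the transporter that moves iron out of the endosome, and the Cre recombinase, driven by Cx3cr1, is active only after tamoxifen and only in cells that express Cx3cr1, which include macrophages other than microglia. The Slc11a2KD mice were gavaged with 4 mg of tamoxifen on 5 consecutive days when they were 5 to 6 months old. Controls were given 200 µL of corn oil alone, the vehicle in which the study dissolved its tamoxifen. The effect of tamoxifen itself cannot be told apart from that of the knockdown. APP/PS1 mice were hemizygous for transgenes that cause amyloid deposition and WT mice were their littermates. Cells were taken at 15 to 18 months. The groups were Control WT (n = 6), Control APP/PS1 (n = 6), Slc11a2KD WT (n = 5) and Slc11a2KD APP/PS1 (n = 5). The study removed an outlier from Control APP/PS1 without giving its number in the sources used here. A 7th sample of that group, 0010, was taken to be the one removed and was left out of the values unless it is named, and the results that change when it is kept are given with that value. The study describes its replicates as mice, while the labels do not tie a sample to an animal.

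Transferrin carries iron in the blood and extracellular fluid. Its receptor takes it into endosomes, where ferric iron is released, reduced by STEAP3 and passed to the cytosol by DMT1, while ZIP14 and ZIP8 can take up iron that is not bound to transferrin. When cytosolic iron is low, IRP1 and IRP2 bind stem-loops called iron-responsive elements: in the 3' UTR of Tfrc mRNA this protects the message from decay, and in the 5' UTR of ferritin and ferroportin mRNA it blocks translation. When iron is plentiful, IRP1 takes up an iron-sulfur cluster and becomes the cytosolic aconitase, and FBXL5 marks IRP2 for degradation, so much of this control acts on proteins that RNA counts do not show.

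The libraries held between 31128643 and 54872491 counts on genes. Expression is given as CPM, the counts scaled to a common library size, after TMM scaling. Microglial markers were high in every sample, with the 8 genes of the list summing to between 32647 and 49710 CPM. Slc11a2 itself had 35.1 ± 5.13 CPM in Control WT and 34.2 ± 4.75 CPM in Slc11a2KD WT (SD, n = 6 and 5), while the APP/PS1 groups had 43.2 ± 3.93 CPM (Control, n = 6) and 56.5 ± 13.5 CPM (Slc11a2KD, n = 5). It was therefore not lower in the samples labelled Slc11a2KD. Counts summed over a whole gene can miss the loss of a few floxed exons, so they do not check those labels. The study reported that expression over the floxed exons was abrogated in its knockdown samples, and it also checked the knockdown by RT-qPCR. Reads by exon were not analysed here, and the group names below are those of the labels. The Control libraries were numbered 5 to 17 and the Slc11a2KD libraries 1 to 4 and 18 to 23, so library number and treatment cannot be told apart between the Control and Slc11a2KD groups. The balance of long and short transcripts also differed between libraries. It was measured as the mean log2 CPM of genes whose main transcript had at least 4969 bases minus that of genes with at most 2001 bases, set to 0 at the mean of Control WT. It ran from -0.21 to 0.18 in Control WT, from -0.36 to 0.31 in Control APP/PS1, from -1.07 to 0.57 in Slc11a2KD WT and from -1.58 to 0.10 in Slc11a2KD APP/PS1, and sample 0010 had -1.33. Within the Slc11a2KD groups, the 6 libraries numbered 18 to 23 were at -0.43 or lower and the 4 libraries numbered 1 to 4 were at 0.10 or higher.

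Levels between genes were compared per kilobase of the main transcript (RPKM). Averaged over the 22 samples, Fbxl5 was the highest of the 7 genes at 22.5 RPKM. Aco1 (8.84), Ireb2 (8.62), Slc39a8 (7.93) and Slc39a14 (6.88) lay close together, Tfrc followed with 3.98 RPKM, and Steap3 was the lowest with 0.608 RPKM. The choice of transcript mattered for Fbxl5. Over all annotated exons it had 4.88 RPKM, below the 5.15 RPKM of Aco1. Steap3 rested on 29 to 229 counts per sample, against 422 or more for each of the other genes.

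**Figure D1:**
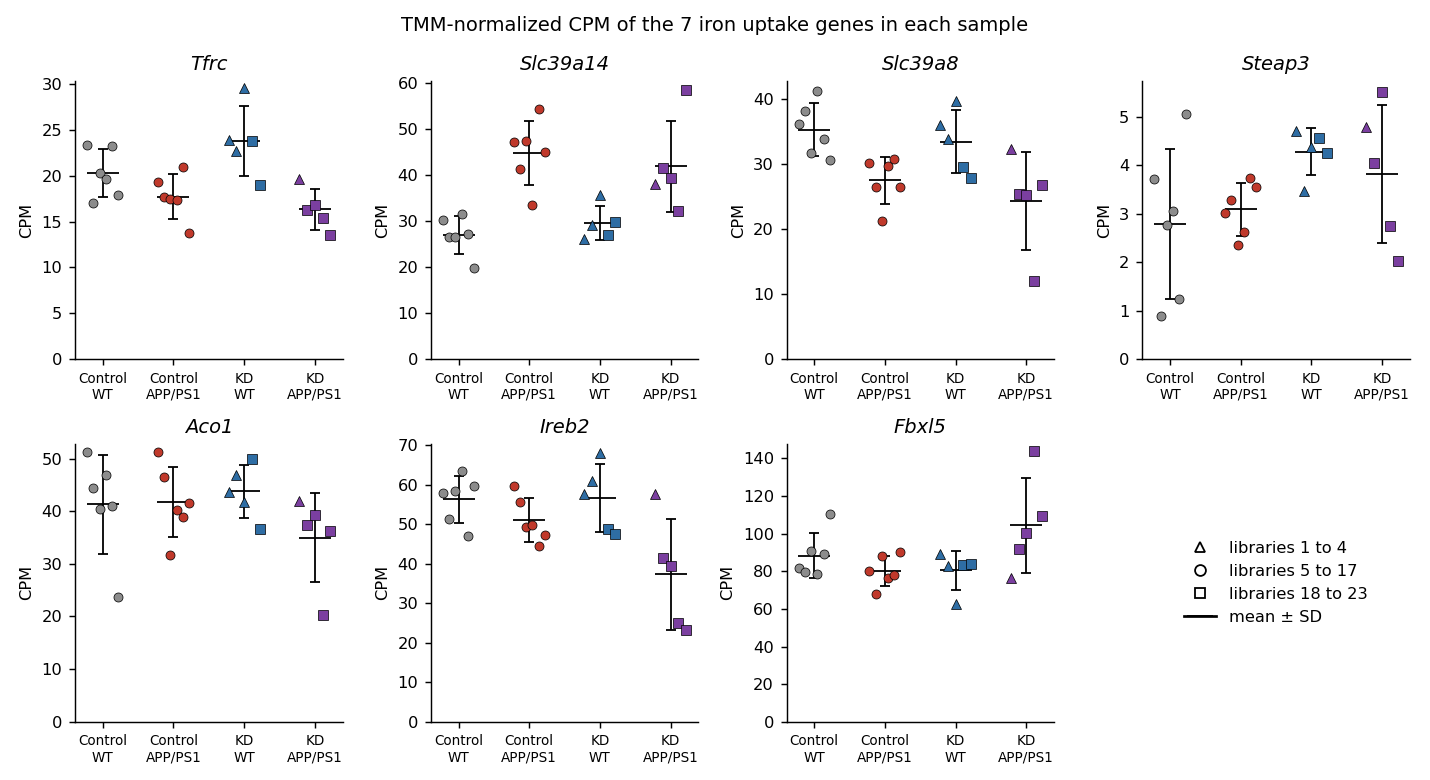
TMM-normalized CPM (y axis, linear from 0) of each of the 7 genes in each of the 22 samples, by group (KD stands for Slc11a2KD). Points are samples, shapes mark the run of library numbers, and the bars are the mean ± SD. Slc39a14 lies at 33.5 to 54.2 CPM in Control APP/PS1, above every Control WT sample, and the low Ireb2 values of Slc11a2KD APP/PS1 are all in libraries numbered 18 to 23.

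APP/PS1 was compared with WT among the Control mice to ask which of these genes differ in the presence of amyloid. Of the 7 genes, 1 was called, that is, had an adjusted p-value below 0.05 in edgeR's quasi-likelihood test, and 10.5% of all genes tested were called in this comparison, 5.99% higher and 4.48% lower. The called gene was Slc39a14, which was higher in APP/PS1. In APP/PS1 against WT among the Slc11a2KD mice, 3 of the 7 genes were called (16.2% of all genes, 9.77% higher and 6.41% lower), with Slc39a14 higher and Tfrc and Ireb2 lower in APP/PS1. In Slc11a2KD against Control, 0 of the 7 genes were called in WT and 0 in APP/PS1, and edgeR called 0 of all genes (0%) in either, with 1110 and 3862 genes at an unadjusted p below 0.05. DESeq2 called 10 and 31 of all genes there and limma voom 1 and 2. The study, also using DESeq2, reported many more genes for Slc11a2KD against Control in APP/PS1, and the reason for the difference was not tested. In counts simulated with no gene changed, DESeq2 made 15 false calls for Slc11a2KD against Control in APP/PS1, and edgeR and limma voom 0. There each gene had the same mean in every group, and library run and transcript balance were left out. The simulation therefore cannot say how many calls in the measured counts are false. The change of each gene with its 95% interval is plotted for the 4 comparisons.

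**Figure D2:**
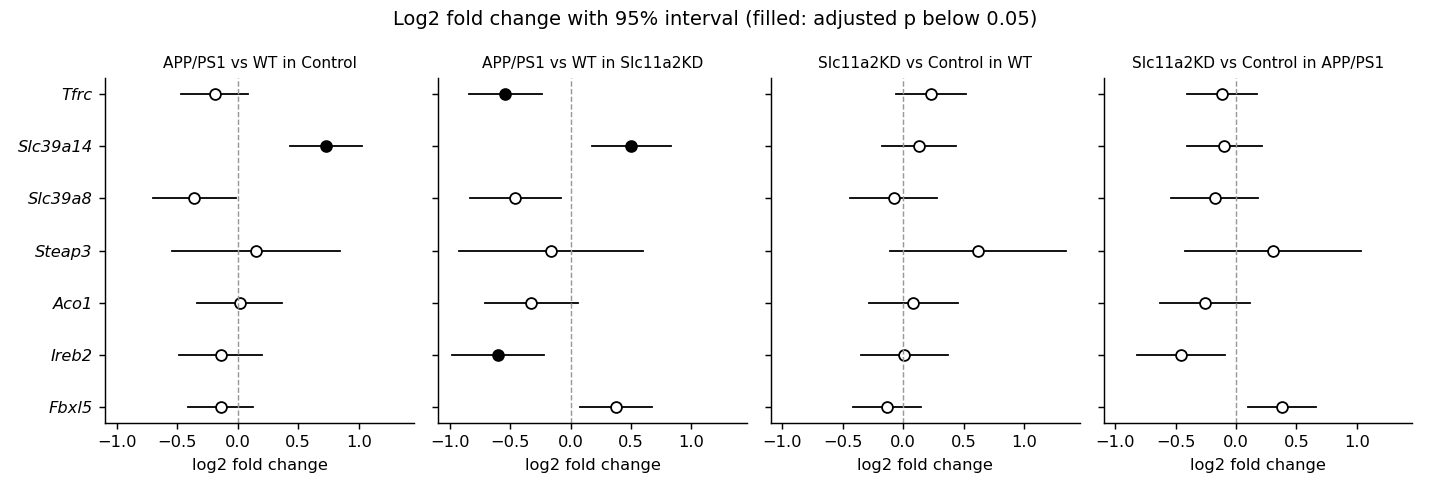
Log2 fold change (x axis) of the 7 genes in the 4 comparisons, from edgeR's fit of all 4 groups. Lines are 95% intervals and filled points have an adjusted p-value below 0.05. Slc39a14 is filled in both APP/PS1 comparisons (0.73 and 0.50), Tfrc and Ireb2 only in the one among Slc11a2KD mice.

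Tfrc (ENSMUSG00000022797, chr16:32427556-32451612 of GRCm39, plus strand) encodes the receptor that brings transferrin-bound iron into the cell. Its mRNA is the only one of the 7 in which a scan of the UTRs found the pattern of an iron-responsive element. A window of 29 bases on the mRNA strand was counted when it held an unpaired C, any 5 bases and the loop CAGTGN, with those 5 bases paired to the 5 after the loop and at least 3 of 6 pairs in the stem below. Tfrc held 4 such windows in its 3' UTR of 2461 bases. They are shown because iron-responsive elements are the sites through which IRP1 and IRP2, measured here as Aco1 and Ireb2, are known to act on this mRNA. Capitals mark the unpaired C and the 6-base loop, and the sequences and positions are those of GRCm39 with GENCODE M39, plus strand.

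Tfrc site 1, chr16:32450037-32450065: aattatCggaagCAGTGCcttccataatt
Tfrc site 2, chr16:32450416-32450444: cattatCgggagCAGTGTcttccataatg
Tfrc site 3, chr16:32450481-32450509: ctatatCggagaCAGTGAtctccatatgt
Tfrc site 4, chr16:32450528-32450556: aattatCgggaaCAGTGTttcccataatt

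They began 886, 1265, 1330 and 1377 bases after the stop codon. Of 14317 mRNAs searched, with 1 main transcript per gene, 46 (0.321%) had at least 1 window in the 3' UTR, and 1, Tfrc, had at least 2. Among the 3830 mRNAs with a 3' UTR as long as that of Tfrc or longer, 0.574% had a window. The same scan found a window in the 5' UTR of 9 mRNAs (0.0629%). Among 17 genes of iron biology looked up by name these included Fth1 and Ftl1, the ferritin subunits, Slc40a1, the iron exporter ferroportin, and Alas2, the first enzyme of haem synthesis in red cells. The windows of Fth1, Ftl1 and Slc40a1 are shown for comparison with those of Tfrc, since the same loop sits at the other end of the message.

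Fth1, chr19:9960096-9960124, plus strand: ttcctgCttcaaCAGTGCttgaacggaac
Ftl1, chr7:45109203-45109231, minus strand: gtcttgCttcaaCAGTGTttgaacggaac
Slc40a1, chr1:45964625-45964653, minus strand: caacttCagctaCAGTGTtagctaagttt

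A match is a description of the letters and not a measured binding site. In Slc39a14, Slc39a8, Steap3, Aco1, Ireb2 and Fbxl5 these letters were not found in either UTR.

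Tfrc ranged from 17.1 to 23.4 CPM (median 20.01, n = 6) in Control WT and from 13.7 to 20.9 CPM (median 17.6, n = 6) in Control APP/PS1. Slc11a2KD WT samples 0001, 0002, 0003, 0019 and 0022 had 23.9, 22.7, 29.6, 23.8 and 18.997 CPM. Slc11a2KD APP/PS1 samples 0004, 0018, 0020, 0021 and 0023 had 19.7, 16.3, 16.9, 15.4 and 13.6 CPM. The 2 Slc11a2KD groups overlapped by 1 pair of samples, since APP/PS1 0004 was above WT 0022. In Slc11a2KD mice Tfrc was lower in APP/PS1 than in WT by a log2 fold change of -0.54 (standard error 0.15, 95% interval -0.84 to -0.24, adjusted p = 0.0131), that is, 31.2% lower. In Control mice the log2 fold change was -0.19 (95% interval -0.47 to 0.08, adjusted p = 0.419). The difference between these changes, tested as the interaction of Slc11a2KD and APP/PS1, was -0.35 (95% interval -0.75 to 0.06, adjusted p = 0.547) and was not called. In the order of the group means, Slc11a2KD WT (23.8 ± 3.79 CPM) stood above Control WT (20.3 ± 2.63), Control APP/PS1 (17.7 ± 2.41) and Slc11a2KD APP/PS1 (16.4 ± 2.24). None of the neighbours in that order that were compared was called. The lower Tfrc of Slc11a2KD APP/PS1 was the one among the 3 calls of that comparison that held without the 3 libraries of lowest long-to-short balance, Slc11a2KD WT 0022 and APP/PS1 0021 and 0023 (log2 fold change -0.49, adjusted p = 0.0462). With the balance as a covariate it was -0.35 (adjusted p = 0.121).

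Slc39a14 (ENSMUSG00000022094, chr14:70540678-70588914, minus strand) encodes ZIP14, a transporter of iron, zinc and manganese. It had from 19.9 to 31.5 CPM (median 26.8, n = 6) in Control WT and from 33.5 to 54.2 CPM (median 46.0, n = 6) in Control APP/PS1. The lowest Control APP/PS1 sample was above the highest Control WT sample, and 5.33% of all genes tested separated these groups in that direction. The log2 fold change was 0.73 (standard error 0.14, 95% interval 0.44 to 1.03, adjusted p = 0.00118), a 1.66-fold higher level. Slc11a2KD WT samples 0001, 0002, 0003, 0019 and 0022 had 26.1, 29.0, 35.6, 27.0 and 29.8 CPM. Slc11a2KD APP/PS1 samples 0004, 0018, 0020, 0021 and 0023 had 37.9, 41.4, 39.3, 32.1 and 58.4 CPM. Only WT 0003 and APP/PS1 0021 broke the separation of the Slc11a2KD groups. The log2 fold change there was 0.50 (standard error 0.16, 95% interval 0.18 to 0.83, adjusted p = 0.0300), and its difference from the change in Control mice was -0.23 (95% interval -0.66 to 0.21, adjusted p = 0.672). The call in Slc11a2KD mice was lost in 6 of 13 other settings and in 4 of 10 fits that left out 1 sample, with 0.36 (adjusted p = 0.121) without 0023, 0.46 (0.0774) without 0001, 0.50 (0.0639) without 0002 and 0.47 (0.0589) without 0019. The group means ran from Control APP/PS1 (44.7 ± 6.93 CPM) and Slc11a2KD APP/PS1 (41.8 ± 9.89) to Slc11a2KD WT (29.5 ± 3.70) and Control WT (26.9 ± 4.04). The first and last pairs in that order were not called (adjusted p = 0.777 and 1).

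In the same comparison of Control mice other cell type markers moved as well. The sum of 5 astrocyte markers was 6.74 to 13.7 CPM in Control WT and 35.3 to 98.1 CPM in Control APP/PS1, of which 1 marker, Gfap, was called higher and 4 were not called, and Aqp4 was at 1.08 CPM or less in these groups. The sum of 6 markers of border-associated macrophages was 196 to 397 CPM in Control WT and 73.9 to 179 CPM in Control APP/PS1, with 5 of the 6 called lower, and 3 of the 8 microglial markers were called lower. Also called lower were 4 of 6 endothelial markers, with 1 higher (sums of 142 to 296 CPM in WT and 93.0 to 116 CPM in APP/PS1), 4 of 5 of oligodendrocytes (673 to 2739 and 308 to 905 CPM), 4 of 6 of monocytes and neutrophils (77.3 to 282 and 23.2 to 82.3 CPM), 2 of 5 of neurons and 1 of 5 of lymphocytes. In Slc11a2KD mice, where Slc39a14, Tfrc and Ireb2 were called, 5 of 8 microglial markers (42322 to 49710 CPM in WT and 36366 to 39909 CPM in APP/PS1), 4 of 6 endothelial markers (124 to 274 and 78.1 to 125 CPM), 3 of 6 of border-associated macrophages (215 to 490 and 108 to 168 CPM) and 2 of 5 of oligodendrocytes (940 to 3554 and 490 to 1205 CPM) were called lower, and Gfap of the 5 astrocyte markers higher. Their part in the result was not tested. In bulk RNA, fewer cells of a type and less RNA per cell cannot be told apart. The sum of 10 choroid plexus markers reached 1975 and 1023 CPM in Control WT 0012 and 0015 and at most 5.39 CPM in Control APP/PS1. Of the 10 choroid plexus markers, 8 were called lower in APP/PS1. Without those 2 samples Slc39a14 was still called (0.70, adjusted p = 0.00661).

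Slc39a8 (ENSMUSG00000053897, chr3:135531040-135594333, plus strand) encodes ZIP8, the closest relative of ZIP14, with a similar range of metals. Its log2 fold changes with APP/PS1 had the opposite sign, and none was called. Control WT samples had from 30.7 to 41.4 CPM (median 35.1, n = 6) and Control APP/PS1 samples from 21.2 to 30.9 CPM (median 28.1, n = 6), so the groups touched only at their ends. The log2 fold change was -0.36 (95% interval -0.70 to -0.02, unadjusted p = 0.0401, adjusted p = 0.180) and was not called. Slc11a2KD WT samples 0001, 0002, 0003, 0019 and 0022 had 36.1, 33.9, 39.8, 29.7 and 27.9 CPM. Slc11a2KD APP/PS1 samples 0004, 0018, 0020, 0021 and 0023 had 32.4, 25.4, 25.3, 12.0 and 26.8 CPM. Sample 0021 was far below the rest, and the log2 fold change of -0.46 (95% interval -0.83 to -0.08, adjusted p = 0.0877) was -0.29 without it. Slc39a8 passed the threshold in Control mice with limma voom (-0.37, adjusted p = 0.0326), when only the 2 compared groups were fitted (-0.35, adjusted p = 0.0349), and without Slc11a2KD 0021, 0022 and 0023 (-0.35, adjusted p = 0.0421), and in Slc11a2KD mice with DESeq2 (-0.45, adjusted p = 0.0455), limma voom (-0.48, adjusted p = 0.0387) and a filter of 10 counts in every sample (-0.46, adjusted p = 0.0458). The group means were 35.4 ± 4.03 CPM in Control WT, 33.5 ± 4.82 in Slc11a2KD WT, 27.5 ± 3.62 in Control APP/PS1 and 24.4 ± 7.52 in Slc11a2KD APP/PS1.

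Steap3 (ENSMUSG00000026389, chr1:120118487-120200435, minus strand) encodes the reductase that converts ferric to ferrous iron in the endosome, and it is best known from red cell precursors. It was the least expressed of the 7 genes and, relative to its level, the most scattered over the 22 samples, though not within Slc11a2KD WT. The Control WT samples ran from 0.891 to 5.05 CPM (median 2.91, n = 6) and the Control APP/PS1 samples from 2.35 to 3.74 CPM (median 3.14, n = 6). Slc11a2KD WT samples lay between 3.47 and 4.71 CPM and Slc11a2KD APP/PS1 samples between 2.02 and 5.50 CPM. The largest change was that of Slc11a2KD against Control in WT, with a log2 fold change of 0.62 whose 95% interval ran from -0.11 to 1.34 (adjusted p = 1). The sum of 5 tested red cell markers ran from 0.181 to 272 CPM over the samples, and the groups overlapped in it.

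Aco1 (ENSMUSG00000028405, chr4:40142998-40199010, plus strand) encodes IRP1 and was not called in any comparison. It had 41.3 ± 9.46 CPM in Control WT, 41.7 ± 6.70 in Control APP/PS1 and 43.8 ± 5.09 in Slc11a2KD WT (SD, n = 6, 6 and 5). In Slc11a2KD APP/PS1 it had 35.0 ± 8.52 CPM (n = 5), with 41.9, 37.3, 39.3, 20.2 and 36.2 CPM in samples 0004, 0018, 0020, 0021 and 0023. The Control comparison gave a log2 fold change of 0.01 (95% interval -0.34 to 0.37), an interval that leaves room for changes of up to 1.29-fold. In Slc11a2KD mice the log2 fold change was -0.32 (95% interval -0.71 to 0.06, adjusted p = 0.246), and -0.18 without 0021.

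Ireb2 (ENSMUSG00000032293, chr9:54770970-54820011, plus strand) had from 47.1 to 63.3 CPM (median 58.2, n = 6) in Control WT and from 44.5 to 59.7 CPM (median 49.4, n = 6) in Control APP/PS1. Slc11a2KD WT samples 0001, 0002, 0003, 0019 and 0022 had 57.5, 61.0, 68.1, 48.7 and 47.6 CPM. Slc11a2KD APP/PS1 samples 0004, 0018, 0020, 0021 and 0023 had 57.5, 41.4, 39.5, 24.9 and 23.1 CPM. Sample 0004 sat among the WT samples and the other 4 lay below all of them. In Slc11a2KD mice Ireb2 was lower in APP/PS1 by a log2 fold change of -0.60 (standard error 0.18, 95% interval -0.98 to -0.22, adjusted p = 0.0269), that is, 34.1% lower. The change in Control mice was -0.14 (95% interval -0.49 to 0.20, adjusted p = 0.691), and the difference between them was -0.46 (95% interval -0.97 to 0.05, adjusted p = 0.544). Within APP/PS1, Slc11a2KD against Control gave a log2 fold change of -0.45 (95% interval -0.82 to -0.09, unadjusted p = 0.0171, adjusted p = 0.205).

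Ireb2 followed the long-to-short balance of the libraries more closely than any other of the 7 genes. Over the 22 samples the Pearson correlation of its log2 CPM with the balance was 0.91, and 0.86 after the group means were subtracted. The correlation is a description, since all samples share the scaling and the main transcript of Ireb2, with 5873 bases, is itself among the long ones. The main transcripts of Slc39a14 and Steap3 were also among the long ones (5197 and 5662 bases), with correlations of -0.27 and -0.0042. The 2 lowest Ireb2 values were in the 2 libraries of lowest balance, 0021 and 0023, and sample 0010, left out of the fit, had a balance of -1.33 and 26.0 CPM of Ireb2. With the balance as a covariate the log2 fold change in Slc11a2KD mice was -0.24 (adjusted p = 0.207), and without 0021, 0022 and 0023 it was -0.34 (adjusted p = 0.142). Among libraries numbered 18 to 23 alone, 4 against 2, it was -0.59 (adjusted p = 0.372). In those libraries the WT samples had 47.6 and 48.7 CPM and the APP/PS1 samples 23.1 to 41.4 CPM, while the libraries numbered 1 to 4 had 57.5 to 68.1 CPM in 3 WT samples and 57.5 CPM in 1 APP/PS1 sample.

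**Figure D3:**
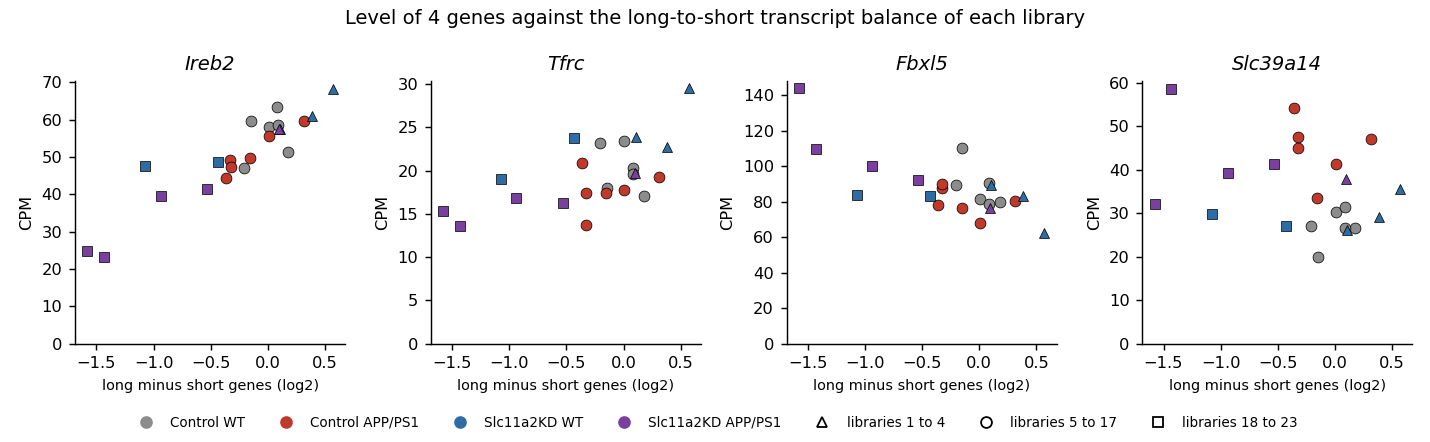
CPM (y axis, linear from 0) of Ireb2, Tfrc, Fbxl5 and Slc39a14 in each of the 22 samples against the long-minus-short transcript balance of its library (x axis, log2 units, 0 at the mean of Control WT). Colours mark the groups and shapes the run of library numbers. Ireb2 and Tfrc are lower and Fbxl5 higher in libraries of low balance, and Slc39a14 shows no such slope within groups (correlation 0.02 after the group means were subtracted).

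Fbxl5 (ENSMUSG00000039753, chr5:43900859-43978980, minus strand) encodes the F-box protein that binds IRP2 when iron and oxygen are present. It was not called in any comparison. Control WT samples had from 78.4 to 110 CPM (median 85.4, n = 6) and Control APP/PS1 samples from 68.0 to 90.1 CPM (median 79.2, n = 6), with a log2 fold change of -0.14 (95% interval -0.41 to 0.13, adjusted p = 0.584). Slc11a2KD WT samples 0001, 0002, 0003, 0019 and 0022 had 89.4, 83.1, 62.4, 83.3 and 83.9 CPM. Slc11a2KD APP/PS1 samples 0004, 0018, 0020, 0021 and 0023 had 76.5, 91.9, 100.3, 144 and 110 CPM. The 4 APP/PS1 samples other than 0004 were above all 5 WT samples. The log2 fold change was 0.38 (standard error 0.14, 95% interval 0.08 to 0.67, adjusted p = 0.0733), which was past the threshold with DESeq2 (0.40, adjusted p = 0.0459). Against Control APP/PS1 it was also 0.38 (standard error 0.14, 95% interval 0.10 to 0.66, unadjusted p = 0.00984, adjusted p = 0.205). These comparisons share the Slc11a2KD APP/PS1 samples. Fbxl5 had the smallest unadjusted p of the 7 genes for the interaction, 0.0132 (difference 0.52, 95% interval 0.12 to 0.92, adjusted p = 0.544), and 9.08% of all genes had an unadjusted p below 0.05 there. Its correlation with the long-to-short balance was -0.73, and -0.68 after the group means were subtracted. Sample 0021 had both the lowest balance and the highest Fbxl5, and 0010 had 129 CPM.

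In Slc11a2KD against Control among WT mice, the log2 fold changes of the 7 genes lay between -0.14 (Fbxl5) and 0.62 (Steap3), and none had an unadjusted p below 0.05, against 5.92% of all genes. Tfrc had a log2 fold change of 0.23 (95% interval -0.06 to 0.52), so a rise of more than 1.43-fold lay outside its interval. Slc39a14 had 0.13 (95% interval -0.18 to 0.44). Among APP/PS1 mice the changes lay between -0.45 (Ireb2) and 0.38 (Fbxl5), and these 2 genes had an unadjusted p below 0.05, against 20.6% of all genes. DESeq2 called 0 of the 7 in either comparison. Without Slc11a2KD APP/PS1 0004, whose balance of 0.10 was the highest of its group, both were called in APP/PS1 (Ireb2 -0.66, adjusted p = 0.0202, and Fbxl5 0.48, adjusted p = 0.0227), in a fit that called 16.4% of all genes. Without 0021, 0022 and 0023 neither was (Ireb2 -0.14, adjusted p = 0.932, and Fbxl5 0.17, adjusted p = 0.897). In this comparison the choroid plexus markers moved too, with sums of 1.33 to 5.39 CPM in Control APP/PS1 and of 88.8 to 499 CPM in the Slc11a2KD APP/PS1 samples other than 0004, which had 2.30 CPM. Their part in the result was not tested.

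Across the 22 samples Fbxl5 correlated at -0.75 with Aco1, -0.72 with Ireb2 and -0.69 with Slc39a8 (Pearson correlation of log2 CPM), while Slc39a8 correlated at 0.72 with Ireb2 and at 0.71 with Aco1. Tfrc correlated at 0.64 with Ireb2 and at 0.43 with Aco1. Slc39a14 and Slc39a8, the ZIP pair, had -0.28 over all samples and 0.42 after the group means were subtracted, so that the sign changed once the groups were set level. All of these values share the libraries and their balance, which correlated at 0.74 with Slc39a8, 0.61 with Tfrc and 0.59 with Aco1.

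Among 11887 other genes with a mean of at least 1 CPM, the 3 whose log2 CPM correlated most with each member over the 22 samples were found. For Ireb2 they were Abl1 (0.96), Adap2 (0.96) and Cd2ap (0.95), and for Slc39a8 Arhgap27 (0.94), Plxna1 (0.92) and Tbc1d2b (0.92). For Aco1 they were Gzf1 (0.90), Zfp27 (0.89) and Sidt2 (0.88), and for Fbxl5 they included Polr1h (0.87) and Cfap20 (0.87). After the group means were subtracted these 11 correlations lay between 0.84 and 0.94. For Slc39a14 they were Hspa8 (0.88), a chaperone, Efhd2 (0.88) and Stx4a (0.85), which fell to 0.57, 0.57 and 0.54 within groups. Tfrc was most like Sh3tc1 (0.82), Zfp518a (0.82) and Lnpep (0.81), and Steap3 most like Spc24 (0.71), Gm32312 (0.70) and 1110025M09Rik (0.69). Within groups these were 0.80, 0.77 and 0.64 for Tfrc and 0.69, 0.70 and 0.62 for Steap3. All these genes were picked by the correlations given. The part of the transcript balance in them, within groups as well, was not tested.

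The genes around the 7 were followed in 6 lists of 67 genes, of which 64 were tested. APP/PS1 against WT called 10.5% of all genes in Control mice and 16.2% in Slc11a2KD mice, and these shares also stand beside the counts of each list below. Of the 64, it called 18 in Control mice, 8 higher and 10 lower, and 27 in Slc11a2KD mice, 15 higher and 12 lower. Of these, 13 were called in both, all in the same direction. They are 72.2% of the 18 and 48.1% of the 27, and the overlap over all genes was not computed. Slc11a2KD against Control called 0 of the 64 in WT and 0 in APP/PS1, where 2 and 22 had an unadjusted p below 0.05. Over all genes, 5.92% and 20.6% had an unadjusted p below 0.05 there. All calls in these lists come from the main fit, and their dependence on library run or transcript balance was not tested. The log2 fold changes of all 6 lists in the APP/PS1 comparisons are plotted side by side.

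**Figure D4:**
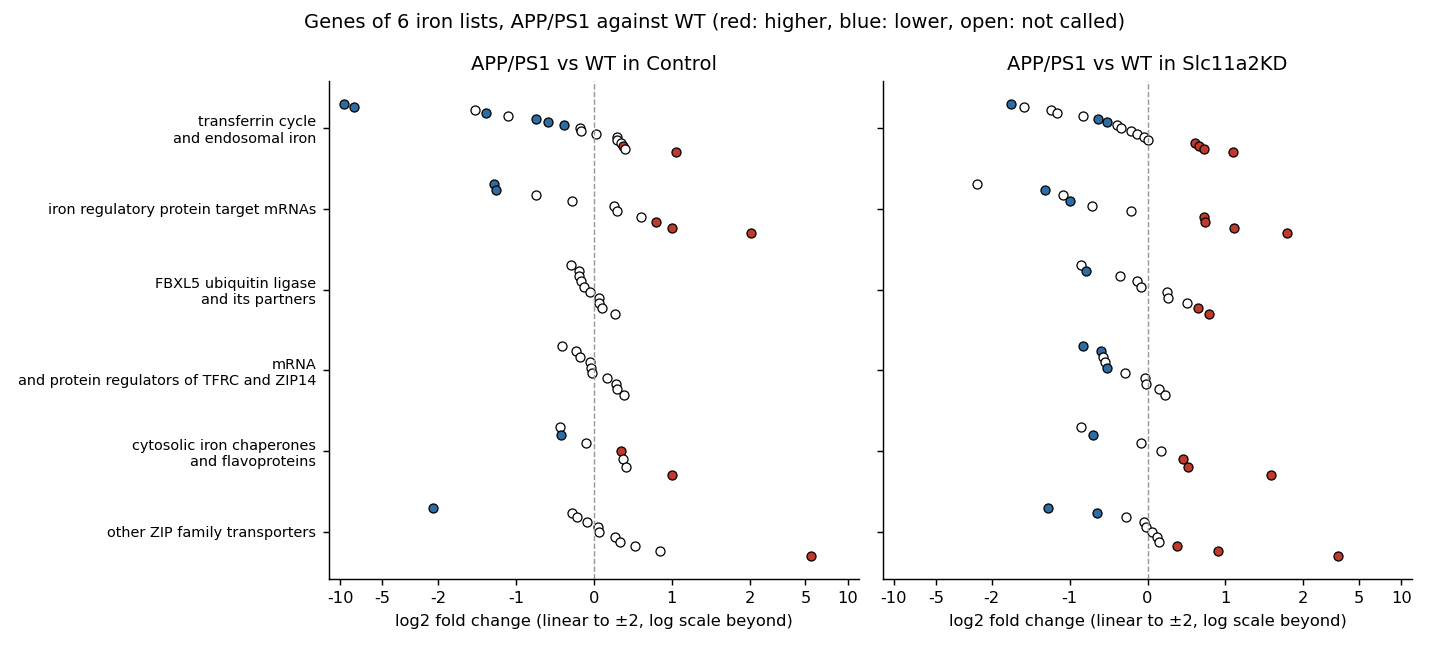
Log2 fold change (x axis, linear to ±2 and logarithmic beyond) of each tested gene of 6 iron lists in APP/PS1 against WT, among Control mice (left) and Slc11a2KD mice (right). Each point is a gene, red where called higher, blue where called lower and open where not called. In Control mice no gene of the FBXL5 list or of the regulators of TFRC and ZIP14 is filled, and in Slc11a2KD mice 3 of each are. Over all genes, 10.5% were called in Control mice and 16.2% in Slc11a2KD mice.

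Among 17 tested genes of the transferrin cycle and of endosomal iron, 8 were called in Control mice, 2 higher and 6 lower (median log2 fold change -0.18, and -0.02 over all genes), and 7 in Slc11a2KD mice, 4 higher and 3 lower (median -0.34, and -0.07 over all genes). Slc11a1 encodes NRAMP1, the macrophage relative of DMT1 that pumps iron and manganese out of phagosomes. It had 353 ± 33.6 CPM in Control WT and 732 ± 79.3 CPM in Control APP/PS1 (SD, n = 6 each), with no overlap, and a log2 fold change of 1.05 (adjusted p = 6.58e-08). In Slc11a2KD mice it had 342 ± 37.2 and 730 ± 65.3 CPM (n = 5 each, log2 fold change 1.09, adjusted p = 2.79e-07). Mcoln1, an iron-permeable channel of lysosomes, was higher in both (0.38, adjusted p = 0.0338, and 0.66, adjusted p = 0.000898). Cd163, the haemoglobin scavenger receptor and also one of the border-associated macrophage markers above, was lower in both (-1.39, adjusted p = 0.00811, and -1.76, adjusted p = 0.00247). Slc11a2 itself was called higher in APP/PS1 only among Slc11a2KD mice (0.72, adjusted p = 0.00209, against 0.30, adjusted p = 0.175, in Control), with a difference of 0.42 (unadjusted p = 0.0489, adjusted p = 0.544). The calls of Steap1 and Steap2, relatives of Steap3, in Control mice rested on the 2 samples rich in choroid plexus markers: Steap1 had 9.26 and 5.97 CPM in Control WT 0012 and 0015, 2 counts in 1 Control APP/PS1 sample and 0 counts in the other Control samples, and Steap2 had 9.17 and 2.45 CPM in the same 2 samples and 0 counts in the rest.

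Of 10 mRNAs known or reported as targets of the iron regulatory proteins, 5 were called in Control mice, 3 higher and 2 lower, and 6 in Slc11a2KD mice, 4 higher and 2 lower (medians 0.28 and -0.46). Both ferritin subunits were higher. Ftl1 had 973 ± 187 CPM in Control WT and 1956 ± 65.1 CPM in Control APP/PS1 (log2 fold change 1.01, adjusted p = 1.48e-07), and Fth1 rose by 0.79 (adjusted p = 0.00203). In Slc11a2KD mice the log2 fold changes were 1.11 for Ftl1 (adjusted p = 2.59e-07) and 0.73 for Fth1 (adjusted p = 0.00710). Slc40a1, the exporter, was lower (-1.26, adjusted p = 7.89e-09, and -0.99, adjusted p = 1.17e-06), with no overlap between groups in either. Hif1a, a transcription factor of the hypoxia response, was 2.04 higher in Control mice (adjusted p = 4.66e-10) and 1.78 higher in Slc11a2KD mice (adjusted p = 1.88e-08), and Epas1, which encodes HIF-2alpha, was lower (-1.28, adjusted p = 0.00742, and -1.31, adjusted p = 0.0100). The scan found a 5' UTR window in Fth1, Ftl1 and Slc40a1 but no window in either UTR of Hif1a, Epas1 or Slc11a2. A listed target thus need not match the pattern. The Tfrc mRNA, with 4 windows in its 3' UTR, was called only among Slc11a2KD mice.

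Over all genes, 10.5% were called in Control mice and 16.2% in Slc11a2KD mice. Of 10 partners of FBXL5, 0 were called in Control mice, where 1 had an unadjusted p below 0.05, and 3 in Slc11a2KD mice. These were Cul1, the scaffold of the ligase, which was lower (-0.79, adjusted p = 0.0221), and its RING subunit Rbx1 (0.65, adjusted p = 0.0272) and Ciao2b of the cytosolic iron-sulfur assembly machinery (0.79, adjusted p = 0.0135), which were higher. The groups overlapped for all 3. Of 10 regulators of the TFRC or ZIP14 mRNA or protein, 0 were called in Control mice, where 1 had an unadjusted p below 0.05, and 3 in Slc11a2KD mice, all lower. They were the ubiquitin ligase Marchf1 (-0.82, adjusted p = 0.0234), the HIF partner Arnt (-0.60, adjusted p = 0.0214) and Rc3h2, which encodes the RNA-binding protein Roquin-2 (-0.52, adjusted p = 0.0431). All 6 of these genes overlapped between the groups, as did Tfrc and Ireb2. For the interaction, 0 of all genes were called. These 6 calls, like the others of the 6 lists, come from the main fit, and their dependence on library run or transcript balance was not tested. With library run or balance as a covariate, 9.45% and 9.88% of all genes were called in Slc11a2KD mice.

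Among 7 genes of cytosolic iron handling, plotted as cytosolic iron chaperones and flavoproteins, 3 were called in Control mice and 4 in Slc11a2KD mice. Bola2, which works with glutaredoxin 3 in iron delivery, had 43.2 ± 10.9 CPM in Control WT and 86.6 ± 14.2 CPM in Control APP/PS1 (log2 fold change 1.00, adjusted p = 0.00816), and 44.7 ± 20.02 and 134 ± 53.5 CPM in Slc11a2KD WT and APP/PS1 (1.59, adjusted p = 0.000305). Pcbp2, an iron chaperone, was higher in both (0.35, adjusted p = 0.0224, and 0.52, adjusted p = 0.00206), and Ncoa4, the receptor that sends ferritin to lysosomes, was lower in both (-0.42, adjusted p = 0.0471, and -0.70, adjusted p = 0.00231). Glrx3 was called in Slc11a2KD mice (0.45, adjusted p = 0.0425).

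Among the other 11 tested ZIP transporters, 2 were called in Control mice and 5 in Slc11a2KD mice. Slc39a12, which encodes the zinc transporter ZIP12, was the one other ZIP gene called lower in Control mice, at 35.4 ± 6.41 against 7.85 ± 2.59 CPM (log2 fold change -2.17, adjusted p = 1.41e-07), and 29.2 ± 3.93 against 12.0 ± 3.65 CPM in Slc11a2KD mice (-1.28, adjusted p = 0.000407), with no overlap in either. Slc39a2 went the other way from near 0. It had 0 counts in 5 of 6 Control WT samples and 110 to 170 counts in every Control APP/PS1 sample, and it separated the Slc11a2KD groups as well, with at most 40 counts in WT and at least 76 in APP/PS1. Slc39a4 (0.90, adjusted p = 0.0111) and Slc39a1 (0.37, adjusted p = 0.0491) were higher and Slc39a10 (-0.65, adjusted p = 0.0448) lower in Slc11a2KD APP/PS1. Slc39a14, at a mean of 35.8 CPM over all samples, was thus not the only ZIP gene that differed with APP/PS1.

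The calls of the 7 genes were set against the processing. Slc39a14 in Control mice kept its call in 11 of the 12 other settings and in all 12 fits that left out 1 sample, and lost it only where a log2 fold change above 1 was required. The 3 calls in Slc11a2KD mice held with DESeq2, with limma voom, with other size factors and under other gene filters, and with sample 0010 kept that of Ireb2 was lost (-0.60, adjusted p = 0.0603). They were lost, with the same signs, when only the 2 Slc11a2KD groups were fitted, when the run of library numbers or the transcript balance was a covariate, among libraries numbered 18 to 23, and where a log2 fold change above 1 was required. With either covariate the log2 fold change of Slc39a14 stayed at 0.50.

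**Figure D5:**
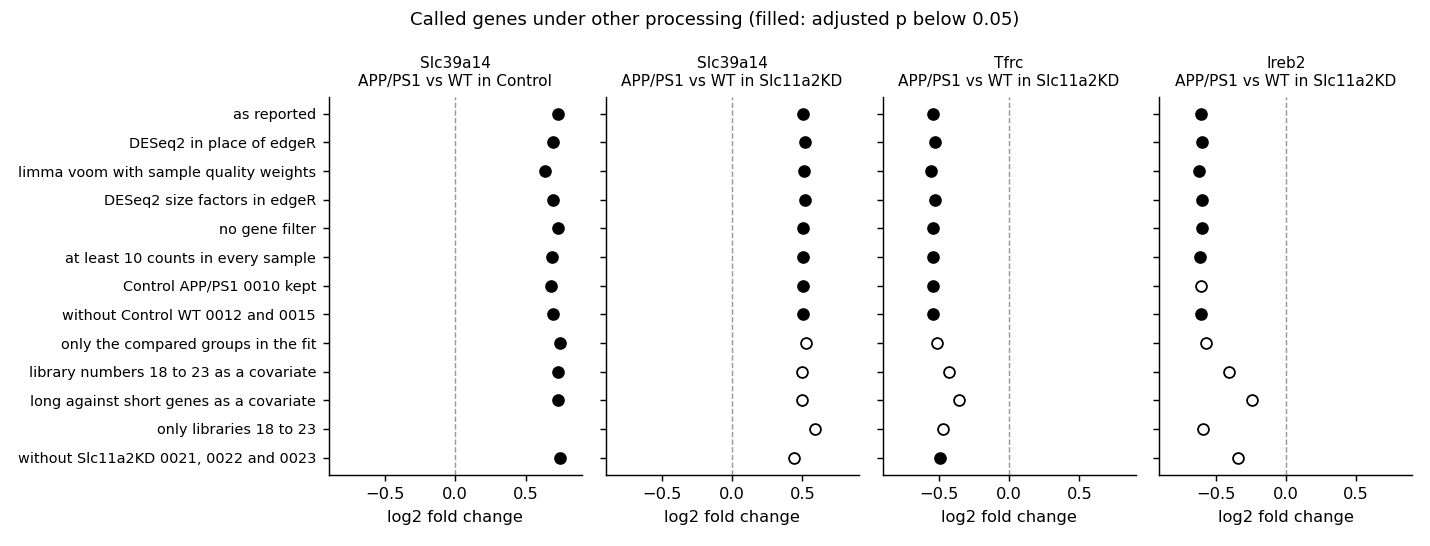
Log2 fold change (x axis) of the called genes under each processing setting (y axis). Points are filled where the adjusted p-value is below 0.05. Slc39a14 in Control mice is filled in each setting shown. The 3 genes in Slc11a2KD mice turn open where library run or transcript balance enters the fit. With run and with balance, Ireb2 moves from -0.60 to -0.41 and -0.24, and Tfrc from -0.54 to -0.43 and -0.35. Slc39a14 stays at 0.50 in both (adjusted p = 0.0717 and 0.0797).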

How the data were processed

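Gene counts of 23 bulk RNA-seq samples were analysed. The authors trimmed reads with Trim Galore 0.6.7, aligned them to mm39 with STAR, counted reads per gene with the GENCODE M31 annotation and deposited the raw counts, which hold 18876 genes. A second deposited table of normalized values was not used. Control APP/PS1 0010 was left out: the study removed a sample of this group as an outlier, and that it was 0010 is an assumption. Library totals ran from 31128643 to 54872491 counts.

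A gene was tested when 3 or more of the 22 samples held 5 or more counts of it (18759 genes), with edgeR 4.0.16 in R 4.3.3: TMM scaling, quasi-likelihood test, the 4 groups in 1 fit, Benjamini-Hochberg adjustment over all genes tested and a threshold of 0.05. There were 5 comparisons, the interaction included. Standard errors come from the F statistic and intervals are 95%. DESeq2 1.42.0 and limma 3.58.1 were alternatives. The fits of Slc11a2KD against Control in APP/PS1 were also run on simulated counts. Apart from the genes changed on purpose, each gene had the same mean in every group, and library run and transcript balance were left out. With no gene changed, edgeR made 0 false calls, DESeq2 15 and limma voom 0. With 200 genes changed by 1.5 log2 units, they recovered 154, 169 and 142, with 2, 37 and 5 false calls. Positions and transcripts are from GRCm39 with GENCODE M39, in which 18731 genes were found by identifier.

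The 7 genes, the pathway and marker lists and the tests were chosen with earlier results of these data known. From each pathway list, called genes were named (at most the 4 of largest change, or the 2 of smallest p where none was called), and others named were chosen after their values were seen. A pair of settings was also chosen after seeing the data: the transcript balance as a covariate, and leaving out Slc11a2KD 0021, 0022 and 0023. A gene most like Fbxl5 and another with a 5' UTR window are not reported here.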

Additional observations from a re-analysis of the deposited data

Results flagged for a closer look

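Over the 7 genes and 4 groups, 28 sets of samples were tested for a single distant value by Dixon's ratio, and 2 were past its 95% critical value. Chance alone flags about 1 in 20 such sets. Aco1 in Slc11a2KD APP/PS1 0021 was at 20.2 CPM, with the other samples of its group at 36.2 to 41.9 CPM. Fbxl5 in Slc11a2KD WT 0003 was at 62.4 CPM, with the other samples of its group at 83.1 to 89.4 CPM. Sample 0021 also had the lowest balance of long to short transcripts (-1.58) and 0003 the highest (0.57). Their part in these values was not tested.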

How the results depend on the processing

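No paired analysis was possible because the replicate numbers are library numbers, each used once. Where numbers of called genes among the 7 moved, the cause was not tested. APP/PS1 against WT in Control (1 called, and 10.5% of all genes) gave 2 with limma voom (18.2%), 2 with only the compared groups (18.6%), 2 without Slc11a2KD 0021, 0022 and 0023 (15.0%) and 0 with a log2 fold change above 1 required (4.89%). In Slc11a2KD mice (3 called, 16.2%) the number was 5 with DESeq2 (21.1%), 4 with limma voom (23.5%), 4 with at least 10 counts (32.2%), 2 with 0010 kept (12.7%), 1 without 0021, 0022 and 0023 (12.9%), and 0 with a log2 fold change above 1 required (5.89%), only the compared groups (6.10%), library numbers 18 to 23 as a covariate (9.45%), only those libraries (2.09%) or transcript balance as a covariate (9.88%).

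Leaving out 1 sample gave 1 to 1 called genes in Control mice (8.35% to 10.5% of all genes), 1 to 5 in Slc11a2KD mice (1 without 0001, 0002, 0003 or 0023, with 10.6% to 11.9% of all genes, and 5 without 0004, with 25.6%), 0 to 0 for Slc11a2KD against Control in WT, 0 to 2 in APP/PS1 (2 without 0004, with 16.4%, and 0% in the other fits) and 0 to 0 for the interaction. In Slc11a2KD mice these fits gave -0.62 to -0.45 for Tfrc (largest adjusted p = 0.0516, without 0003), 0.36 to 0.58 for Slc39a14 (0.121, without 0023) and -0.81 to -0.47 for Ireb2 (0.0894, without 0021).

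Signs changed only in comparisons in which the gene was not called. Aco1 in Control mice (0.01) was -0.022 with DESeq2 and with its size factors, -0.041 with limma voom, -0.029 with at least 10 counts, -0.060 with 0010 kept and -0.085 without 0012 and 0015, and -0.10 to 0.086 with 1 sample left out. Slc11a2KD against Control in WT gave Ireb2 -0.0027 with DESeq2 and with its size factors, -0.0051 with at least 10 counts and -0.0029 with only the compared groups (-0.068 to 0.049 with 1 sample left out), and Aco1 -0.016 without 0012 and 0015 (-0.033 to 0.15). With library numbers 18 to 23 as a covariate, Slc39a8 was 0.080 in WT, 0.15 in APP/PS1 and 0.066 for the interaction, and Tfrc 0.10 in APP/PS1. With transcript balance as a covariate, Tfrc was 0.048 and Slc39a8 0.079 in APP/PS1, and Slc39a8 0.13 for the interaction. Without 0021, 0022 and 0023, Slc39a8 was 0.016 in APP/PS1 and 0.025 for the interaction, and Steap3 0.17 for APP/PS1 in Slc11a2KD mice and 0.011 for the interaction. With 1 sample left out, Steap3 ran from -0.035 to 0.40 in Control and from -0.33 to 0.0015 in Slc11a2KD mice, and Slc39a8 from -0.22 to 0.077 for the interaction.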
